A study of Macaca mulatta with 28 samples.

Results

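Cohort 2 of this macaque study was made up of 12 of its 28 animals, and its members were taken by the animal numbers in the sample titles, which run from Control-10241 to Very Heavy-10252, from a table of estimated transcript counts. Control-10241, Control-10245 and Control-10250 were controls (n = 3), and the other 9 were drinkers, of which 2 were classed as binge, 1 as heavy and 6 as very heavy drinkers. All were male rhesus macaques labelled WT, and the tissue was a punch of the ventral tegmental area (VTA) processed as bulk tissue, 1 library per animal. Drinkers self-administered 4% (w/v) ethanol voluntarily in daily sessions of 22 hours, with 12 months of open access followed by re-access periods and months of forced abstinence, and their tissue was taken after a last abstinence of 30 days. Controls were either calorically yoked or housing controls, and the labels do not say which of these each animal was. The remaining 16 animals, 8 controls and 8 drinkers (1 low, 4 heavy and 3 very heavy, with no binge drinker), formed cohort 1 and appear here only where their difference is set against that of cohort 2. The question addressed was which transcripts of the VTA differed between drinkers and controls of cohort 2 after protracted abstinence.

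The VTA holds the dopamine neurons that project to the nucleus accumbens and cortex, together with GABA and glutamate neurons and many glial cells. Dopamine neurons make their transmitter with tyrosine hydroxylase (TH), load it into vesicles with the transporter SLC18A2 and take it back up with SLC6A3, and kappa opioid receptors (OPRK1) on their axons limit its release. Large projecting neurons fill their axons with neurofilaments, polymers of a light, a medium and a heavy chain encoded by NEFL, NEFM and NEFH. In bulk tissue, fewer cells of a type and less RNA per cell cannot be told apart.

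Library totals in cohort 2 lay between 16421244 and 25370423 estimated counts. They averaged 21794991 ± 2346589 in drinkers and 22090061 ± 2844940 in controls (SD, n = 9 and 3; exact permutation test over 220 splits, two-sided, p = 0.873). Transcripts of the mitochondrial genome took 49.4% ± 5.14 of the counts in drinkers and 47.2% ± 8.56 in controls (exact permutation test, p = 0.605, n = 9 and 3), and the smallest p this design allows is 0.00455. Dopamine neuron markers were present in each of the 12 animals, but over a wide range. Their summed normalized count (18 transcripts, counts scaled to a common library size) was 6986, 41828 and 3945 in Control-10241, Control-10245 and Control-10250. In the drinkers it spanned 2015 to 31633 (median 4758). Of these 18 markers, 3 were at 0 in at least 1 animal, and TH and SLC6A3 were at 0 in none.

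**Figure D1:**
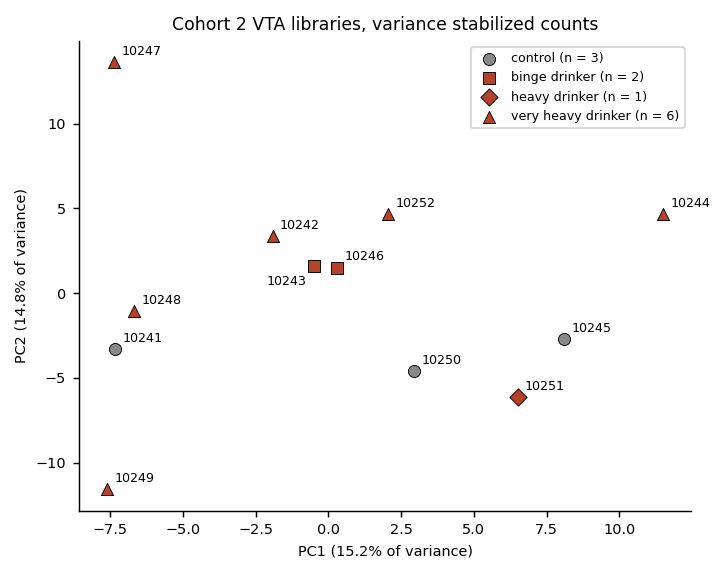
Scores of the 12 cohort 2 libraries on the first principal components (PC1, 15.2% of the variance, horizontal; PC2, 14.8%, vertical) of variance stabilized counts, 1 point per animal, with shape giving the class and labels the animal number. The 3 controls lie within the range of the drinkers on both axes.

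No principal component separated the groups. The first 5 held 15.2%, 14.8%, 11.7%, 10.7% and 8.68% of the variance, and their drinker-to-control differences had Benjamini-Hochberg adjusted p between 0.508 and 0.868 over the 5 components (exact permutation test over 220 splits, two-sided). In the plot of the first components, Control-10241 lay at the low end of PC1 beside Very Heavy-10247, Very Heavy-10248 and Very Heavy-10249, and Control-10245 lay toward the high end, between Heavy-10251 and Very Heavy-10244. The second component ran from Very Heavy-10249 to Very Heavy-10247.

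No transcript passed the threshold in cohort 2. Of 12785 transcripts tested with edgeR's quasi-likelihood test, 0 (0.0%) had a Benjamini-Hochberg adjusted p under 0.05, and the lowest adjusted p was 0.9997. At an unadjusted p under 0.05 there were 481 transcripts (3.76%), of which 271 (2.12%) were higher and 210 (1.64%) lower in drinkers. This share is below the 0.05 that the threshold gives on average where no transcript differs. With the spread of all 28 animals there were 276. DESeq2's Wald test called 22 transcripts and limma-voom 3 at an adjusted p under 0.05. Of the 22, 19 were at 0 in at least 1 animal, and the 3 without a 0 were NES, ZNF652 and CBX6. The 3 of limma-voom, NUP214, GALNT11 and CLOCK, were each at 0 in at least 8 animals. Drinkers and controls did not overlap for 40 transcripts higher in drinkers (0.313%) and 41 lower (0.321%). A log2 fold change above 0 was found for 51.6% of the transcripts. The median log2 fold change over all was 0.0098 and the median standard error 0.28. The split of the 481 into 56.3% higher and 43.7% lower depended on the fit, since the higher share was 66.5% after a correction for GC content and 31.3% with limma-voom. The values below are therefore given as descriptions with unadjusted p, and each transcript named had an adjusted p of 0.9997. Of 65 transcripts chosen for naming with an unadjusted p under 0.05, 37 kept it in the same direction without Control-10241, 34 without Control-10245, 47 without Control-10250 and 8 with Control-10250 as the only control.

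Among abundant transcripts, the 10 lower in drinkers with the lowest p included the neurofilament chains NEFL and NEFH, and NEFM had a slightly higher p. NEFL (ENSMMUT00000004732.4, chromosome 8 from 25216264 to 25222081 in Mmul_10), the light chain that forms the core of the polymer, had normalized counts of 65779, 52475 and 30958 in Control-10241, Control-10245 and Control-10250, and of 22129 to 36540 in the 9 drinkers, with a median of 31167. Control-10241 and Control-10245 lay above all drinkers, while Control-10250 lay among them. The log2 fold change of NEFL was -0.77 ± 0.20 (SE; 95% confidence interval -1.21 to -0.34; unadjusted p = 0.00200 by edgeR's quasi-likelihood test).

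NEFM (ENSMMUT00000000918.4, chromosome 8 from 25175785 to 25183571), the medium chain and a neighbour of NEFL on the chromosome, had 112966, 89342 and 34423 normalized counts in the same controls and 22234 to 52821 in drinkers, with a median of 37136. Here too Control-10250 was lower than 6 of the 9 drinkers and the other controls were higher than all of them. Its log2 fold change was -1.08 ± 0.32 (SE; unadjusted p = 0.00517 by edgeR's quasi-likelihood test). The heavy chain NEFH (ENSMMUT00000097278.1, chromosome 10 from 22052384 to 22063299), which carries the long phosphorylated tail that spaces filaments, had 60303, 63927 and 15330 normalized counts in controls and 10943 to 29872 in drinkers, with a median of 20320. The pattern was the same, 2 controls above all drinkers and 1 among them. The log2 fold change of NEFH was -1.23 ± 0.36 (SE; unadjusted p = 0.00475 by edgeR's quasi-likelihood test).

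**Figure D2:**
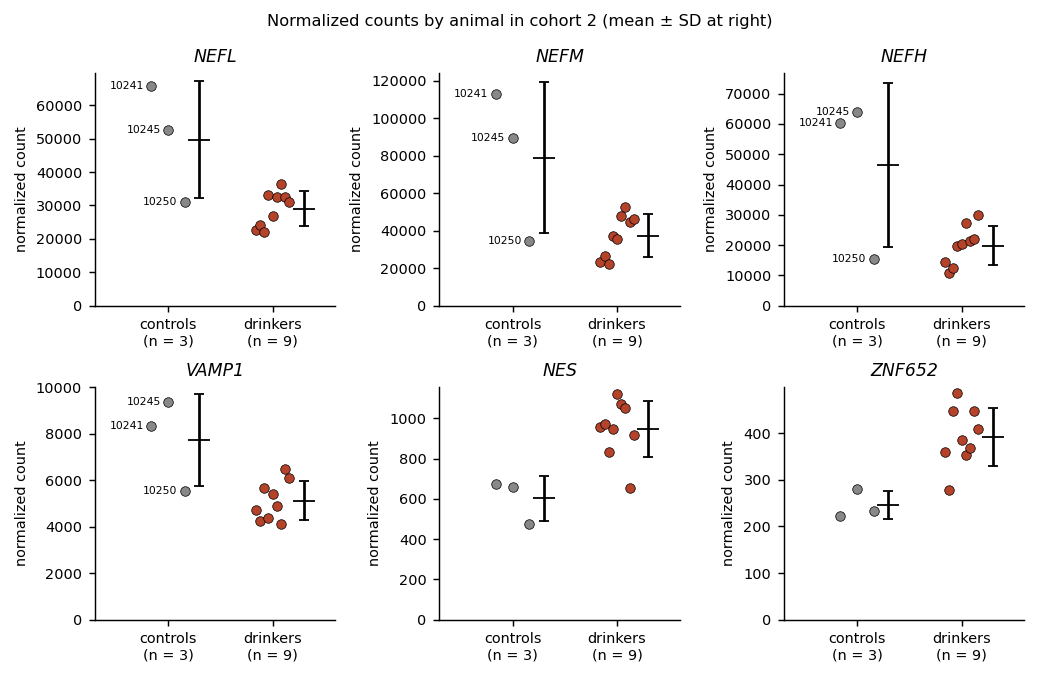
Normalized counts (vertical axis, from 0) of NEFL, NEFM, NEFH, VAMP1, NES and ZNF652 in the 3 controls and 9 drinkers of cohort 2, 1 point per animal, with the mean ± SD at the right of each group and control numbers printed for the first 4 genes. Control-10241 and Control-10245 stand above every drinker for the neurofilament chains and VAMP1, and Control-10250 lies among the drinkers.

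The neurofilament difference turned on Control-10241 and Control-10245. With Control-10250 as the only control, the log2 fold changes were -0.09 for NEFL, 0.12 for NEFM and 0.37 for NEFH (unadjusted p = 0.728, 0.796 and 0.447), a fit that assumes the lone control to vary as the drinkers do. Leaving out 1 animal at a time, NEFL lay between -1.03 and -0.52 and NEFH between -1.65 and -0.93, each with an unadjusted p under 0.05 in all 12 fits. NEFM missed this threshold without Control-10241 (unadjusted p = 0.0668 by edgeR's quasi-likelihood test). With the very heavy drinkers alone NEFL was -0.80 and NEFH -1.16 (unadjusted p = 0.00712 and 0.0199), and the 2 binge drinkers, at 24246 and 33152 normalized counts of NEFL, lay within the range of the very heavy ones. With a dopamine neuron score as covariate NEFL was -0.73 and NEFH -1.07. Some markers of nuclei beside the VTA lay in the same order. The summed normalized count of 7 such markers was 738, 681 and 225 in Control-10241, Control-10245 and Control-10250 and 141 to 528 in drinkers, and 5 of the 7 were at 0 in at least 1 animal. In Control-10241 and Control-10245 most of this sum was PVALB. PVALB, a calcium-binding protein of fast-spiking neurons, had 459, 429 and 67.3 normalized counts in controls and 0 to 433 in drinkers, and POU4F1, a transcription factor of red nucleus neurons, had 55.8, 47.0 and 0 in controls and 0 to 19.4 in drinkers. SLC5A7, the choline transporter and the only 1 of the 7 with an unadjusted p under 0.05, did not follow this order, at 94.1, 56.6 and 80.2 in controls and 17.1 to 71.0 in drinkers (-1.06 ± 0.40, unadjusted p = 0.0202). Of the other markers, 3 had at most 14.0 normalized counts in any animal, and 2 of these were higher in drinkers. Their part in the neurofilament difference was not tested.

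The other neuronal markers differed by less. Of 9 pan-neuronal markers tested, 8 were lower and 1 higher, with a median log2 fold change of -0.46 against 0.0098 over all transcripts, and 3 (the neurofilament chains) had an unadjusted p under 0.05, where the background for lower transcripts was 1.64%. Of the 6 that are not neurofilament chains, 5 were lower (median -0.31) and none had an unadjusted p under 0.05. Without Control-10250, 2 of these 6 were lower, both with an unadjusted p under 0.05, and 4 higher (median 0.08). UCHL1, a deubiquitinating enzyme abundant in neurons, was at -0.46 ± 0.23 (unadjusted p = 0.0692), SNAP25, a protein of the vesicle fusion complex, at -0.33 ± 0.19 (unadjusted p = 0.105) and the dendritic protein MAP2 at -0.03 ± 0.18 (unadjusted p = 0.854). INA, the fourth neuronal filament chain, was at -0.44 ± 0.22 (unadjusted p = 0.0714). Without Control-10241 and Control-10245, the median of the pan-neuronal markers was -0.02 and none had an unadjusted p under 0.05. The summed normalized count of the 6 was 39359, 61958 and 38909 in Control-10241, Control-10245 and Control-10250 and 28949 to 47751 in drinkers. Here Control-10245 alone stood above all drinkers, and the other controls lay among them.

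Of 26 transcripts of synaptic vesicle release, 23 were lower and 3 higher (median log2 fold change -0.28), where 51.6% of all transcripts were higher. The members with an unadjusted p under 0.05 were VAMP1 and SV2C, both lower, against 1.64% of all transcripts, and there was 1 without Control-10245 and 4 without Control-10250. VAMP1 (ENSMMUT00000085942.1, chromosome 11 from 6618075 to 6627415), a vesicle protein of the fusion complex, had 8338, 9367 and 5528 normalized counts in Control-10241, Control-10245 and Control-10250 and 4119 to 6507 in drinkers, with a median of 4887. Its 2 highest values were those of Control-10241 and Control-10245, and 6 of 9 drinkers were below the lowest control. The log2 fold change was -0.60 ± 0.16 (SE; unadjusted p = 0.00312), and -0.11 without those 2 controls. SV2C, a vesicle glycoprotein of basal ganglia neurons, had 271, 687 and 376 in controls and 100 to 358 in drinkers (log2 fold change -0.77 ± 0.33, unadjusted p = 0.0384). With Control-10250 alone, 21 of the 26 were lower (median -0.17). The phosphatase SYNJ1, which strips clathrin coats from vesicles and is counted among 12 Parkinson disease and synuclein genes (11 lower, median -0.27), was at -0.31 ± 0.13 (unadjusted p = 0.0328). Without Control-10245, SYNJ1 was at -0.16 (unadjusted p = 0.267) and the median of the 12 at -0.04, with 8 lower.

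Further transcripts lower in drinkers came from varied classes. SUSD2, a cell-surface protein, had 254, 279 and 89.4 normalized counts in Control-10241, Control-10245 and Control-10250 and 39.1 to 144 in drinkers (median 69.5), with a log2 fold change of -1.54 ± 0.40 (unadjusted p = 0.00221). RIMKLA, an enzyme that makes the neuropeptide N-acetylaspartylglutamate, had 1577, 2452 and 1606 in controls and 1158 to 1600 in drinkers, where 8 of 9 were below the lowest control (log2 fold change -0.53 ± 0.14, unadjusted p = 0.00277). LNPK, a protein of endoplasmic reticulum junctions, was also below the lowest control in 8 of 9 drinkers (-0.43 ± 0.12, unadjusted p = 0.00410). EPDR1, a secreted ependymin-related protein, was the only one of the 10 lower transcripts named for the lowest p whose groups did not overlap. It had 2690, 3114 and 2778 normalized counts in controls and 1979 to 2549 in drinkers (log2 fold change -0.30 ± 0.08, unadjusted p = 0.00335), and -0.26 with Control-10250 alone. The arginine methyltransferase PRMT3 (-0.31 ± 0.09), TTC1 (-0.34 ± 0.09) and KCTD9 (-0.53 ± 0.14) completed these 10 (with NEFL, NEFH and VAMP1), and each had 7 of 9 drinkers below the lowest control.

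Of the transcripts higher in drinkers, ZNF652, NES, LMAN2L and ETAA1 had an unadjusted p under 0.05 in each alternative fit with more than 1 control. Control-10250 was the lowest control for NES, LMAN2L and ETAA1, so the fit with it alone favours a higher value in drinkers for these. ZNF652 (ENSMMUT00000041895.3, chromosome 16 from 47435427 to 47502608), a zinc finger repressor of transcription, had 223, 279 and 233 normalized counts in Control-10241, Control-10245 and Control-10250 and 279 to 485 in drinkers, with a median of 384. All drinkers but 1 were above the highest control. Its log2 fold change was 0.68 ± 0.16 (SE; unadjusted p = 0.00123 by edgeR's quasi-likelihood test), and between 0.62 and 0.78 over the alternatives. NES (ENSMMUT00000071486.2, chromosome 1 from 94288417 to 94297017), the intermediate filament nestin of progenitor and vessel cells, had 675, 658 and 474 in controls and 652 to 1122 in drinkers, with a median of 954. Again 8 of 9 drinkers were above the highest control, the exception being the heavy drinker at 652. The log2 fold change of NES was 0.65 ± 0.16 (SE; unadjusted p = 0.00128), and between 0.50 and 1.00 over the alternatives. DESeq2's Wald test gave both an adjusted p of 0.0493.

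For 5 of the 10 higher transcripts the groups did not overlap, against 0.313% of all transcripts. The 10 were taken for their lowest p, which favours groups that do not overlap. TMBIM6 (ENSMMUT00000008344.4, chromosome 11 from 49329287 to 49377732), a membrane protein of the endoplasmic reticulum that limits cell death, had 8699, 5019 and 9319 normalized counts in controls and 9381 to 13842 in drinkers (median 11536; log2 fold change 0.61 ± 0.18, unadjusted p = 0.00415). LMAN2L, a lectin that sorts glycoproteins in the early secretory pathway, had 360, 323 and 309 in controls and 382 to 698 in drinkers (0.61 ± 0.17, unadjusted p = 0.00388). BHLHE41, a repressor of the circadian clock, had 159, 134 and 148 in controls and 181 to 261 in drinkers (0.55 ± 0.16, unadjusted p = 0.00516). KCTD14 (0.60 ± 0.16) and ETAA1, an activator of the DNA damage kinase ATR (0.78 ± 0.23), were the others. In the lowest drinker of ETAA1 the normalized count was 191, against 184, 155 and 77.5 in controls. MAPRE1, a protein of growing microtubule ends, had 36.2, 21.1 and 118 in controls and 117 to 284 in drinkers (1.66 ± 0.47, unadjusted p = 0.00412), and RABL2B, a small GTPase of the cilium, 134, 195 and 172 against 184 to 506 (1.10 ± 0.30, unadjusted p = 0.00320). The lipid phosphatase PLPP4 (0.93 ± 0.27) was the tenth.

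Some of the lowest p-values belonged to transcripts that were present in 1 group and at 0 in the other. NUP214, a nuclear pore protein, had 82.7, 107 and 29.5 normalized counts in Control-10241, Control-10245 and Control-10250 and was at 0 in all 9 drinkers (unadjusted p = 0.000137, the lowest of all). GALNT11, a glycosyltransferase, had 87.9 to 128 in controls, 10.5 in Binge-10243 and 0 in the other 8 drinkers (unadjusted p = 0.000305). N4BP2 went the other way, at 0 in all controls and at 27.2 to 206 in 8 drinkers, with 1 drinker at 0 (unadjusted p = 0.000770). Such patterns also gave NDUFS1, a complex I subunit counted in 4 drinkers only, and KIF26B, a kinesin counted in 6. Each of these passed the filter of 5 counts in 3 animals only through the group in which it was high, so its groups had to differ. The table lists 1 transcript identifier per gene symbol, and whether its counts are those of the transcript or of the gene is not given in the sources used here. A 0 may therefore be that of the listed transcript alone, and the switch of a transcript cannot be told apart from a change of the gene. Over all 12785 transcripts, 2819 were at 0 in at least 1 animal, and 96 of the 481 were.

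The dopamine system showed no difference that the spread between animals allowed to be seen. TH (ENSMMUT00000005543.4, chromosome 14 from 2224320 to 2232217) had 2530, 11658 and 821 normalized counts in Control-10241, Control-10245 and Control-10250 and 228 to 8447 in drinkers, with a median of 1431. Both groups spanned more than a factor of 10, and the log2 fold change was -0.77 ± 0.96 (95% confidence interval -2.85 to 1.31; unadjusted p = 0.437), turning to 0.81 without Control-10245. The transporters SLC6A3 (-0.60 ± 1.24) and SLC18A2 (-0.94 ± 1.10) had similarly wide errors, and the autoreceptor DRD2 was at 0.31 ± 1.08. DRD2 had 0, 1260 and 289 normalized counts in Control-10241, Control-10245 and Control-10250, and turned to -0.27 without Control-10241. Of the 18 dopamine neuron markers 13 were lower and 5 higher (median -0.52), and none had an unadjusted p under 0.05. This list turned with 1 control, to 15 higher and 3 lower without Control-10245 (median 0.60), and its median was 0.69 with Control-10250 alone and 0.079 with an oligodendrocyte score as covariate. OPRK1 had 76.5, 195 and 185 normalized counts in controls and 80.1 to 235 in drinkers (log2 fold change -0.08 ± 0.38, 95% confidence interval -0.91 to 0.75), and PDYN, the precursor of its ligand dynorphin, was at -0.12 ± 0.42. SLC17A6, the vesicular glutamate transporter, was at -0.19 ± 0.36 and SLC32A1, that of GABA, at -0.12 ± 0.23. The myelin gene MBP was at 0.16 ± 0.19 and the astrocyte filament GFAP at -0.15 ± 0.74. The GFAP entry had only 11.5 to 134 normalized counts in controls and 8.60 to 127 in drinkers. GLUL, another astrocyte marker, had 69676 to 90569 and 55698 to 90921. The GFAP entry may thus be that of the listed transcript alone. The interval of TH spans values more than 2-fold lower and more than 2-fold higher, so at this spread a difference of that size was not detectable.

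Gene lists were described by how many members lay on each side, since no member of any list passed the adjusted threshold. Of 46 lists with a member tested, leaving aside a list of intermediate filaments written after their values were seen, 24 had no member with an unadjusted p under 0.05, 16 had 1 or 2 and 6 had 3 or more. The 6 were pan-neuronal markers, antioxidant defense, the proteasome, mitochondrial ribosomal proteins, motor proteins, and chaperones with the unfolded protein response.

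In 4 lists, the proteasome, the nuclear subunits of oxidative phosphorylation, mitochondrial ribosomal proteins and antioxidant defense, most members were a little lower in drinkers than in controls. The 13 subunits of oxidative phosphorylation encoded by the mitochondrial genome had 11 higher (median log2 fold change 0.07), but 2 higher and 11 lower without Control-10245 (median -0.06) and 5 higher and 8 lower without Control-10250 (median -0.08). The proteasome, which degrades ubiquitin-tagged proteins, had 32 of 36 transcripts lower and 4 higher (median log2 fold change -0.09, range of medians over alternatives -0.14 to 0.00). Its members with an unadjusted p under 0.05 were PSMD6, PSMC4, PSMA3 and PSMC2, all lower, against 1.64% of all transcripts. PSMC4, an ATPase of the regulatory cap, had 3609, 4380 and 3488 normalized counts in Control-10241, Control-10245 and Control-10250 and 3238 to 3635 in drinkers, so that Control-10245 stood above the rest (-0.18 ± 0.07, unadjusted p = 0.0338). Nuclear subunits of oxidative phosphorylation were lower in 54 of 67 (median -0.09), with ATP5PB, of the ATP synthase stalk, at -0.22 ± 0.09 (unadjusted p = 0.0227). Mitochondrial ribosomal proteins were lower in 48 of 67 (median -0.07), and MRPS36, MRPL28, MRPS26 and MRPL50 had an unadjusted p under 0.05. MRPS36 had 634, 544 and 570 normalized counts in controls and 385 to 509 in drinkers, without overlap (-0.29 ± 0.10, unadjusted p = 0.0111). It was the only 1 of the 67 whose groups did not overlap, against 0.321% of all transcripts. Its unadjusted p was under 0.05 in 11 of 12 fits with 1 animal left out. In antioxidant defense 18 of 28 were lower (median -0.17), among them the mitochondrial superoxide dismutase SOD2 (-0.28 ± 0.11), glutathione reductase GSR (-0.27 ± 0.12) and the peroxidase PRDX2 (-0.29 ± 0.13), with unadjusted p of 0.0264, 0.0374 and 0.0391.

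These counts turned on the controls. Without Control-10245, the members lower at an unadjusted p under 0.05 numbered 1 in the proteasome, 0 in the nuclear subunits of oxidative phosphorylation, 2 in mitochondrial ribosomal proteins and 0 in antioxidant defense, and without Control-10250 they numbered 6, 9, 6 and 4. Without Control-10241 they numbered 2, 0, 1 and 0. Over all transcripts, those lower numbered 210 of 12687 without Control-10241, 100 of 12663 without Control-10245 and 282 of 12672 without Control-10250. With Control-10250 alone, 18 of 36 proteasome transcripts, 15 of 67 oxidative phosphorylation subunits, 31 of 67 mitochondrial ribosomal proteins and 9 of 28 antioxidant transcripts were lower in drinkers, and the medians were 0.00, 0.09, 0.01 and 0.12. The summed normalized count of the proteasome transcripts was 59099, 65723 and 54370 in Control-10241, Control-10245 and Control-10250 and 51974 to 62660 in drinkers, and that of the oxidative phosphorylation subunits was 164243, 177603 and 140070 against 133403 to 163762. Control-10250 was thus within the drinkers' range in both.

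Cytosolic ribosomal proteins lay the other way. They were higher in drinkers in 63 of 69 transcripts (median log2 fold change 0.14, range over alternatives 0.08 to 0.22), against 51.6% of all transcripts, and in 63 of 69 with Control-10250 alone (median 0.22). Only RPL13A (0.24 ± 0.11) and RPS4X (0.20 ± 0.09) had an unadjusted p under 0.05 (0.0413 and 0.0445), and their 2 of 69 is close to the background of 2.12%. RPL13A had 13016, 12481 and 11628 normalized counts in controls and 11824 to 17965 in drinkers, with 8 of 9 drinkers above the highest control. The summed count of the list was 321472, 315499 and 299842 in controls and 258561 to 404219 in drinkers, and the lowest and the highest values were both those of drinkers. Control-10250 had the lowest of the control sums, so the fit with it alone favours higher values in drinkers. Without Control-10250, 58 of the 69 were higher and 11 lower (median 0.11).

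Chaperones and genes of the unfolded protein response, which fold and check proteins in the endoplasmic reticulum and cytosol, were higher in 28 of 38 (median 0.09, range over alternatives 0.06 to 0.12), against 51.6% of all transcripts. In 4 of the 38 the unadjusted p was under 0.05, each higher in drinkers, against 2.12% of all. Without Control-10245 there was 1, and without Control-10250 there were 2 higher and 2 lower. CRYAB, a small heat shock protein abundant in oligodendrocytes and astrocytes, had 17575, 16058 and 15510 normalized counts in Control-10241, Control-10245 and Control-10250 and 16823 to 29560 in drinkers, 8 of 9 above the highest control (0.42 ± 0.17, unadjusted p = 0.0306). MANF, a secreted factor of the endoplasmic reticulum stress response, had at most 657 in controls and 627 to 968 in drinkers, 7 of 9 above the highest control (0.34 ± 0.12, unadjusted p = 0.0163). PDIA4, a disulfide isomerase, was at 0.48 ± 0.22 (unadjusted p = 0.0483), with Very Heavy-10242 at 2357 above the other drinkers (925 to 1423). The fourth was ATF6, a transcript with a mean normalized count of 26.2, at 0 in all controls and at 0 to 91.3 in drinkers. ATF6 passed the count filter only through the drinkers, so its groups had to differ and it adds nothing to the comparison with 2.12%. The oligodendrocyte, astrocyte and microglia lists had medians at least as far from 0 as that of the chaperones. Oligodendrocyte markers were at 0.10 (10 of 14 higher), astrocyte markers at 0.16 (7 of 10 higher) and microglia markers at -0.11 (3 of 11 higher; 0.12 without Control-10241). S100B, a calcium-binding protein of astrocytes, was the only marker among them below an unadjusted 0.05 (0.38 ± 0.17, unadjusted p = 0.0417 by edgeR's quasi-likelihood test). It had 9594, 7321 and 7618 normalized counts in controls and 8224 to 13141 in drinkers, 6 of 9 above the highest control. S100B missed this threshold without Control-10245 or Control-10250 (unadjusted p = 0.152 and 0.136) and with either score as covariate.

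**Figure D3:**
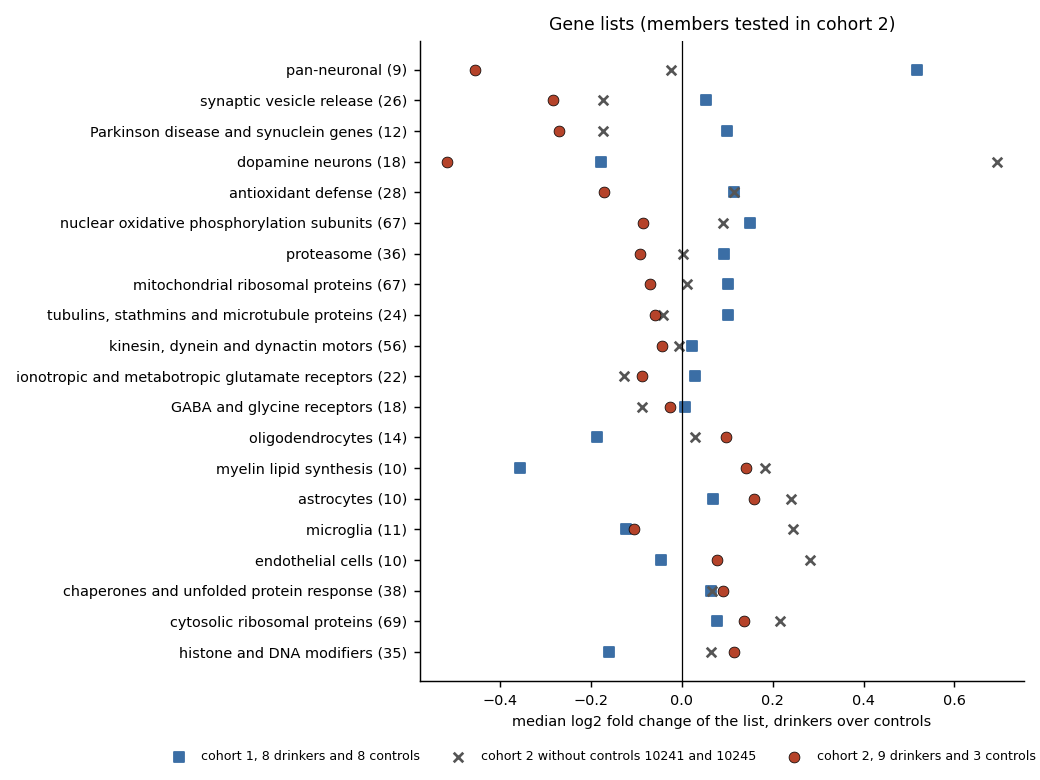
Median log2 fold change, drinkers over controls (horizontal axis), of 20 gene lists, with the number of members tested in cohort 2 in parentheses, for cohort 2 (circles, 9 drinkers and 3 controls), cohort 2 with Control-10250 alone (crosses) and cohort 1 (squares, 8 and 8). The pan-neuronal median is -0.46 in cohort 2, -0.02 with Control-10250 alone and 0.52 in cohort 1, while cytosolic ribosomal proteins lie above 0 in all 3.

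Transcripts of the cytoskeleton and its motors were split. Among 56 kinesin, dynein and dynactin transcripts, 31 were lower and 25 higher (median -0.04), and 5 lower and 2 higher ones had an unadjusted p under 0.05, against 1.64% and 2.12% of all transcripts. KIF26B, 1 of the 2 higher ones, passed the count filter only through the drinkers, so its groups had to differ. The dynein chains DYNC1LI1 (-0.24 ± 0.09), DYNLT3 (-0.52 ± 0.20) and DYNC1I1 (-0.64 ± 0.25), parts of the motor that carries cargo back to the soma, were among the lower ones, with unadjusted p of 0.0158, 0.0203 and 0.0258. DYNLT3 had 1928, 1619 and 1496 normalized counts in controls and 591 to 1508 in drinkers, 8 of 9 below the lowest control. Without Control-10245 there was 1 lower and 1 higher such transcript. With Control-10250 alone, no lower motor transcript had an unadjusted p under 0.05. Of 24 tubulins, stathmins and microtubule proteins, 15 were lower (median -0.06). MAP1B, a microtubule-associated protein of growing axons, was at -0.35 ± 0.15 (unadjusted p = 0.0312) and TUBA8 at -0.44 ± 0.19 (unadjusted p = 0.0399). Neither had an unadjusted p under 0.05 without Control-10245 (0.234 and 0.225) or with either the dopamine neuron or the oligodendrocyte score as covariate.

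Some of the stress, peptide and signaling lists had 1 or 2 members with an unadjusted p under 0.05, against 3.76% of all transcripts. There were 2 of 12 in stress hormones and CRF, 2 of 15 in neurotrophic factors, 2 of 22 in neuropeptides, 1 of 22 in cholesterol synthesis and 1 of 58 in axon guidance, while the opioid system (9 tested), dopamine receptors and signaling (8) and the endocannabinoid system (4) had 0 at edgeR's unadjusted p under 0.05. Without Control-10245 the counts of the lists with 1 or 2 such members were 0, 1, 0, 0 and 0. Without Control-10250, the opioid system had 2 of 9 members higher at this threshold (median 0.24). Dopamine receptors and signaling and the endocannabinoid system still had 0. With Control-10250 alone, 8 of the 9 opioid members were lower (median -0.25). NR3C1, the glucocorticoid receptor, had 589, 233 and 435 normalized counts in Control-10241, Control-10245 and Control-10250 and 374 to 1233 in drinkers, 7 of 9 above the highest control (0.88 ± 0.34, unadjusted p = 0.0223). CRHBP, which binds and holds back corticotropin-releasing factor, had 243, 375 and 172 in controls and 87.2 to 220 in drinkers, 6 of 9 below the lowest control (-0.79 ± 0.31, unadjusted p = 0.0245). VEGFA, a growth factor of vessels, had 196, 245 and 373 in controls and 327 to 675 in drinkers (0.76 ± 0.26, unadjusted p = 0.0129). TRH, the thyrotropin-releasing hormone, had 33.1, 14.4 and 34.1 in controls and 27.2 to 757 in drinkers, with a median of 58.8 and Very Heavy-10244 far above the others (2.63 ± 1.17, unadjusted p = 0.0423). NMB, the peptide neuromedin B and the other such member among 22 neuropeptides, had 84.8, 59.5 and 47.9 in controls and 3.01 to 42.1 in drinkers, without overlap (-1.47 ± 0.59, unadjusted p = 0.0271). IFI6, an interferon-response transcript, was at -0.50 ± 0.21 (unadjusted p = 0.0346). INSIG1, a brake on cholesterol synthesis, was at -0.24 ± 0.10 (unadjusted p = 0.0298), and the netrin receptor UNC5A at -0.77 ± 0.32 (unadjusted p = 0.0317).

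Cell adhesion had 1 such member among 29, close to the 3.76% of all transcripts. This was CADM2 (ENSMMUT00000000846.3, chromosome 2 from 185956279 to 187037122), an adhesion molecule of synapses and axons. It had 241, 266 and 251 normalized counts in Control-10241, Control-10245 and Control-10250 and 270 to 440 in drinkers, with a median of 388. The groups did not overlap. The log2 fold change was 0.52 ± 0.17 (SE; unadjusted p = 0.00892), and between 0.48 and 0.59 over the alternatives. In cohort 1 it was 0.44 ± 0.17 (unadjusted p = 0.0214), and the difference between the cohorts was 0.08 ± 0.25 (adjusted p = 0.997 by edgeR's quasi-likelihood test). Because CADM2 was chosen for its p over all 28 animals, its place here is no independent evidence. VAPB, chosen in the same way, was at -0.16 ± 0.11 in cohort 2 and -0.44 ± 0.11 in cohort 1. STMN1, a microtubule-destabilizing protein, had 81.7, 26.9 and 22.1 normalized counts in cohort 2 controls and 4.42 to 96.2 in drinkers (0.54 ± 0.68, unadjusted p = 0.435), against a log2 fold change of 2.61 ± 0.28 in cohort 1. For STMN1 the cohorts differed by -2.07 ± 0.62 (adjusted p = 0.279).

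Over all transcripts, the log2 fold changes of cohort 2 showed no positive correlation with those of cohort 1. The cohorts share no animal, and 12467 transcripts were tested in both. Across these transcripts, which are not independent of each other, Pearson's r between the log2 fold changes was -0.0019 and Spearman's rho -0.113, and 43.0% had the same sign. Of 469 transcripts with an unadjusted p under 0.05 in cohort 2, 139 (29.6%) had the same sign in cohort 1. In both cohorts an unadjusted p under 0.05 was reached by 92 transcripts, 13 with the same sign and 79 with opposite signs, where the background in cohort 1 was 10.2% at an unadjusted p under 0.05 (5.33% lower in drinkers) and 0.0382% at an adjusted p under 0.05. With the GC correction, 39.9% of the transcripts with an unadjusted p under 0.05 had the same sign.

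**Figure D4:**
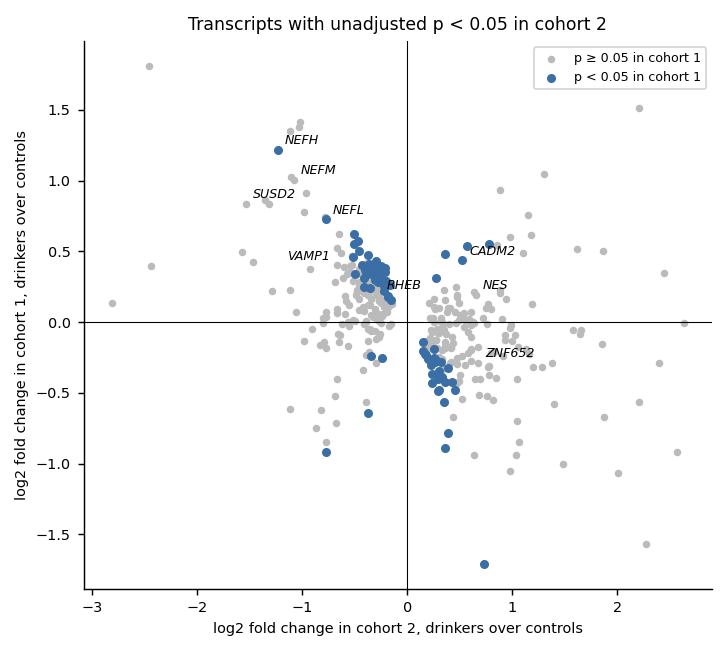
Log2 fold change, drinkers over controls, in cohort 2 (horizontal) and cohort 1 (vertical) for transcripts with an unadjusted p under 0.05 in cohort 2 and tested in both. Blue points also had it in cohort 1, 391 transcripts are drawn and 78 lie beyond 3 on an axis. Most blue points are in the quadrants of opposite sign, with NEFH and NEFL at upper left and CADM2 at upper right.

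The neurofilament chains had opposite signs in the cohorts. Of the intermediate filament genes, 2 were higher at an unadjusted p under 0.05 in cohort 1 (edgeR's quasi-likelihood test), so not every chain reached this threshold there. In cohort 1 the log2 fold change was 0.73 ± 0.33 for NEFL, 1.01 ± 0.49 for NEFM and 1.22 ± 0.57 for NEFH. On a scale common to the 28 animals, the normalized count of NEFH ran from 10704 to 65247 in the 8 cohort 1 controls (median 19609) and from 17365 to 181970 in the 8 cohort 1 drinkers (median 29307). The cohort 2 drinkers, at 10680 to 29125 (median 19888), lay within the range of the cohort 1 controls apart from their lowest, and the 2 high cohort 2 controls, at 59079 and 62768, lay at its upper end. The difference between the cohorts was -1.50 ± 0.45 for NEFL and -2.45 ± 0.78 for NEFH (unadjusted p = 0.00239 and 0.00387), with adjusted p of 0.279 and 0.282 by edgeR's quasi-likelihood test.

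By edgeR's quasi-likelihood test, 2 transcripts passed the adjusted threshold in the difference between the cohorts, TATDN1 and RHEB, of 13769 tested (0.0145%), while 1325 (9.62%) had an unadjusted p under 0.05. DESeq2's Wald test called 150 for the same difference, and limma-voom called NUP214 and TATDN1. RHEB (ENSMMUT00000082593.1, chromosome 3 from 177465325 to 177517200), the GTPase that switches on the growth kinase complex mTORC1, had 2822, 2754 and 2290 normalized counts in Control-10241, Control-10245 and Control-10250 and 1943 to 2360 in drinkers, with a median of 2231. Control-10250 was again within the drinkers' range. Its log2 fold change was -0.26 ± 0.08 in cohort 2 and 0.37 ± 0.07 in cohort 1, a difference of -0.63 ± 0.11 (adjusted p = 0.0398). TATDN1 (ENSMMUT00000021719.4, chromosome 8 from 124812636 to 124861592), a putative deoxyribonuclease, had 665, 562 and 479 in cohort 2 controls and 386 to 608 in drinkers. Its groups overlapped in cohort 2 (log2 fold change -0.25 ± 0.15, unadjusted p = 0.120), while in cohort 1 the 8 drinkers (613 to 885 on the common scale) were above all 8 controls (271 to 487), with a log2 fold change of 0.87 ± 0.13. The difference was -1.12 ± 0.20 (adjusted p = 0.0398 by edgeR's quasi-likelihood test). Neither was called when Control-10241, Control-10245 or any 1 of 8 of the 9 drinkers was left out, nor with the GC correction. The differences themselves lay between -1.23 and -0.99 for TATDN1 and between -0.72 and -0.57 for RHEB with 1 animal of cohort 2 left out. No animal of cohort 1 was left out. Without Control-10241 the adjusted p of both was 0.214, and without Control-10245 it was 0.304.

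**Figure D5:**
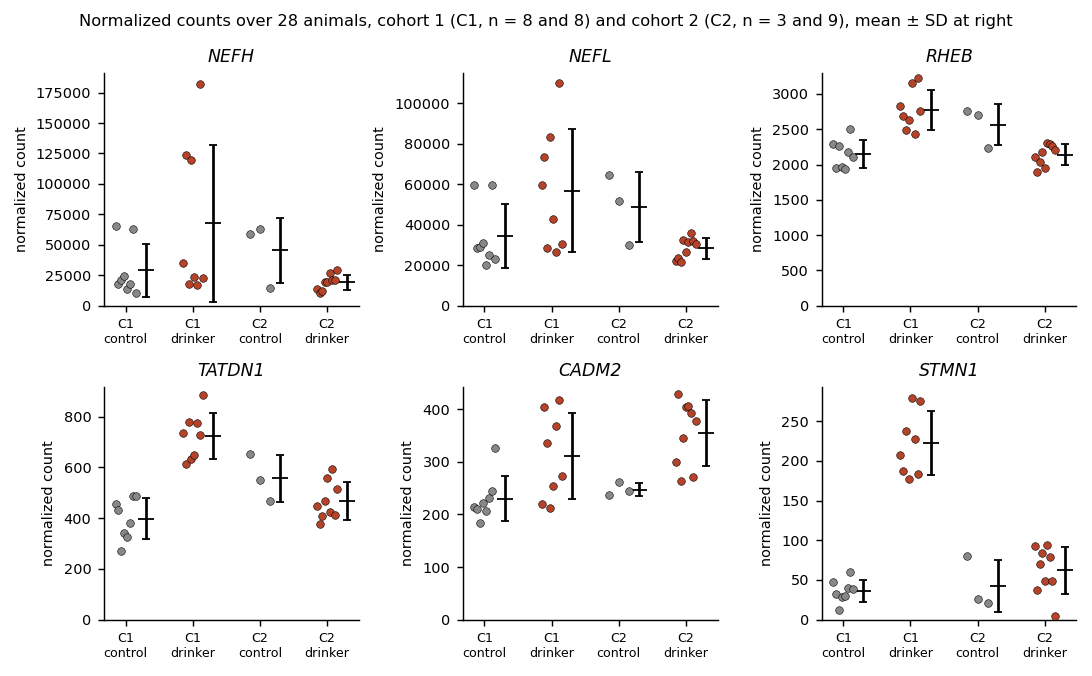
Normalized counts on a scale common to the 28 animals (vertical axis, from 0) of NEFH, NEFL, RHEB, TATDN1, CADM2 and STMN1 in cohort 1 (C1, 8 controls and 8 drinkers) and cohort 2 (C2, 3 controls and 9 drinkers), 1 point per animal, with the mean ± SD at the right of each group. RHEB and TATDN1 lie higher in drinkers in cohort 1 and lower or overlapping in cohort 2, and the CADM2 mean is higher in drinkers in both.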

How the data were processed

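Bulk RNA of VTA punches had been sequenced with 1 library per animal (Universal Plus mRNA kit). Per the labels' processing notes, the authors used Trim Galore 0.6.7, Salmon 1.9.0 and DESeq2 1.36.0, and the study's text names Mmul_10 as the genome build. The values used are the estimated counts the authors deposited, without normalization, 1 column per animal and 1 transcript per gene symbol. How that transcript was chosen, and whether the counts are of the transcript or the gene, is not given in the sources used here. Of 16886 entries, the 1 without a symbol held 1.16e-05 percent of the counts and was left out. Each column was assigned to an animal by its number, and groups came from the sample titles.

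Estimated counts were rounded. The filter kept the 12785 transcripts that reached 5 counts in 3 or more of the 12 animals. The main test of drinkers against controls was that of edgeR 4.0.16 (TMM, quasi-likelihood test, two-sided, Benjamini-Hochberg adjustment at 0.05), fitted on the 12 animals alone, and the difference between cohorts on all 28. The standard error is the log2 fold change divided by the square root of F. Normalized counts are counts over the TMM-scaled library size times its mean. Variance stabilized counts came from DESeq2 1.42.0, and alternatives used limma 3.58.1 and sva 3.50.0 in R 4.3.3. Python 3.11.15 with pandas 2.3.3 and scipy 1.17.1 was used for tables and figures. Gene coordinates and GC content are RefSeq's for Mmul_10. The tests were checked on simulated data with known changes. Each animal is its own replicate, and p-values measure the spread between animals.

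Named transcripts were the 10 higher and 10 lower with the lowest p among those with a mean normalized count of at least 50 and at least 5 counts in every animal of a group, the 5 lowest p of all, 10 genes of the dopamine, kappa opioid and transmitter systems and glia, list members with an unadjusted p under 0.05 (at most 4 per list, mean at least 50), transcripts called in the difference between cohorts, and VAPB, STMN1 and CADM2. INA, UCHL1, SNAP25, MAP2, PVALB, POU4F1, SLC5A7, NMB, CBX6, CLOCK, ATF6, ATOH8, VIM and SYNM were named after their values were seen. A result that this rule names is not reported here. The members and the gene lists were chosen with earlier results of these data known. Alternatives were another test, other size factors, other filters, mitochondrial transcripts left out, covariates (dopamine neuron score, oligodendrocyte score, 1 surrogate variable, GC content), the spread of all 28 animals, very heavy drinkers only, and each animal left out. Leaving out Control-10241 and Control-10245 together was chosen after seeing the data.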

Additional observations from a re-analysis of the deposited data

Results flagged for a closer look

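In 15 of 128 checks, 1 drinker lay far from the other 8 in a normalized count, a summed list or the library total. The cut-off sets apart about 1 in 20 among independent values with a normal spread. Counts chosen for a low p and sums of overlapping lists are not such values, so no excess is shown. Very Heavy-10249 was set apart by a low PLPP4 of 81.3 and a low MRPS36 of 385, by a high PSMD6 of 1097, and by a high summed count of GABA neuron markers of 26804. Binge-10243 held the only GALNT11 counts among drinkers (10.5) and the lowest MRPL28 (830). Very Heavy-10242 had the highest PDIA4 (2357). Very Heavy-10244 had the smallest library (16421244 estimated counts), the highest TRH (757), and the highest summed proteasome (62660) and mitochondrial ribosomal protein counts (53808). Very Heavy-10247 had the highest summed counts of serotonin neuron (68.6), endothelial (17058) and ependymal markers (15864), and Very Heavy-10252 of immediate early genes (11778).

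The drinker difference of cohort 2 departed from that of cohort 1 for TATDN1 by -1.12 and for RHEB by -0.63 on the log2 scale, by the test of the difference itself (adjusted p = 0.0398 each by edgeR's quasi-likelihood test). TATDN1 was higher in cohort 1 drinkers, and its groups overlapped in cohort 2.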

How the results depend on the processing

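No paired analysis was possible because the labels do not give which drinker a caloric control was yoked to, and the animal numbers are not shared between groups. With 3 controls, the fit without 2 of them assumes the lone control to vary as the drinkers do, and 2819 of 12785 transcripts were at 0 in at least 1 animal, where depth limits what a 0 shows. Where a result moved, the cause was not tested.

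The count of transcripts with an adjusted p under 0.05 was 22 with DESeq2, 3 with limma-voom and 0 to 1 with 1 animal left out, the 1 being ATOH8 without Control-10250. Transcripts higher at an unadjusted p under 0.05 numbered 139 with the spread of all 28 animals, 173 without Control-10241 and Control-10245, and 209 to 331 with 1 animal left out. Those lower numbered 420 with limma-voom, 352 without the count filter, 137 with the spread of all 28 animals, 64 without both controls, and 100 to 282 with 1 animal left out, the lowest without Control-10245. The share of higher transcripts was 44.7% without the filter, 67.6% without Control-10245 and 73.0% without both controls. In the difference between cohorts, DESeq2 called 150, the GC correction 0, and fits without 1 animal of cohort 2 0 to 4. Transcripts more positive in cohort 2 at an unadjusted p under 0.05 (679) numbered 359 with the GC correction and 426 to 670 with 1 animal of cohort 2 left out. The share of the same sign in both cohorts was 25.3% at a mean count of at least 50 and 39.9% with the GC correction.

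The difference in library totals (-295070) ran from -1191160 to 1345110 without 1 animal and that in mitochondrial percent (2.21) from -0.41 to 7.15, turning sign without Control-10241 or Very Heavy-10244 (376648) for totals and without Control-10245 or Control-10250 (-0.10) for the percent. Without Control-10241 and Control-10245, the log2 fold change turned for NEFH (0.37), NEFM (0.12), TH (1.83), SLC6A3 (2.55), SLC18A2 (1.55), SLC32A1 (0.14), PRDX2 (0.11), PSMC2 (0.021), MRPL28 (0.011), UCHL1 (0.19), PVALB (1.15), ATOH8 (-0.75) and POU4F1 (5.94, a fitted value against a control at 0). It turned with the dopamine neuron score for SLC6A3 (0.27) and OPRK1 (0.040), with the oligodendrocyte score for SLC6A3 (0.80), SLC18A2 (0.025) and OPRK1 (0.086), and with limma-voom for GFAP (0.11). MAP2 turned to 0.0073 with the oligodendrocyte score, 0.0041 with 1 surrogate variable and 0.0062 with the GC correction. With 1 animal left out it ran from -1.28 to 0.81 for TH, -1.14 to 1.87 for SLC6A3, -1.53 to 1.32 for SLC18A2, -0.27 to 2.15 for DRD2, -0.40 to 0.14 for OPRK1, -0.41 to 0.49 for PDYN, -0.34 to 0.045 for SLC17A6, -0.25 to 0.080 for SLC32A1 -0.67 to 0.30 for GFAP, -0.14 to 0.095 for MAP2 and -0.13 to 0.25 for VIM. The other named transcripts kept their direction in each fit that included them. RHEB also missed the adjusted threshold with limma-voom (-0.62) and both RHEB (-0.54) and TATDN1 (-1.04) with the GC correction.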

Other observations

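Receptor lists were divided between higher and lower members. Of 18 GABA and glycine receptor transcripts, 9 were higher and 9 lower in drinkers of cohort 2 (median log2 fold change -0.03), and of 22 glutamate receptor transcripts 9 were higher and 13 lower (median -0.09). Nicotinic receptors had 3 of 8 higher (median -0.14), and genes of alcohol and aldehyde metabolism 6 of 12 (median -0.01). None of these transcripts had an unadjusted p under 0.05 by edgeR's quasi-likelihood test, against 3.76% of all tested. Without Control-10250, 3 of the 18 GABA and glycine receptor transcripts were higher at this threshold, and without Control-10245 1 glutamate receptor transcript was. Histone and DNA modifiers, enzymes that mark and unmark chromatin, were higher in 21 of 35 (median 0.12), also with none in the main fit. Without Control-10241, 2 of the 35 were higher at this threshold, and 2 without Control-10250. The 13 protein subunits encoded by the mitochondrial genome were higher in 11 (median 0.07), in 2 without Control-10245 (median -0.06), in 5 without Control-10250 (median -0.08) and in all 13 with Control-10250 alone (median 0.46), beside mitochondrial shares of 57.1%, 41.9% and 42.6% of counts in Control-10241, Control-10245 and Control-10250.

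Intermediate filament genes, a list written after their values were seen, were split by 6 higher and 6 lower of 12. The neurofilament chains were lower at an unadjusted p under 0.05 and NES was higher, while VIM, of glia and vessels, was at 0.06 ± 0.25 and SYNM at 0.18 ± 0.11.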
